A study of Mus musculus with 12 samples.

Results

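Asparagine, serine, proline and cysteine are amino acids that cells can either import or make. The enzymes that make them, together with the mitochondrial folate enzymes that take one-carbon units from serine, were followed here as 10 genes, namely Asns, Phgdh, Psat1, Psph, Shmt2, Mthfd2, Aldh1l2, Aldh18a1, Pycr1 and Cth. The genes were chosen by name, as biosynthetic enzymes known to be targets of the transcription factor ATF4, and with earlier results of these data known. All 10 were found among the 55487 genes of both count tables. All 10 also passed the filter on low counts in both assays.

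The cells were B16F10, a mouse melanoma line. They carried either a scrambled control short hairpin RNA (shCtr) or hairpin 2 against Osgep (shOSGEP), delivered by lentivirus, so each genotype was represented by a single hairpin, and all cells received the same medium with glutamine and serum. The product of Osgep is the enzyme within KEOPS that adds t6A, a threonylcarbamoyl group on adenosine, beside the anticodon in tRNAs whose codons begin with A (ANN codons). Ribosome-protected fragments (RPFs), the stretches of mRNA covered by ribosomes, and total RNA were sequenced from 3 replicates of each genotype, which gave 12 libraries in 4 groups. Per the study's methods, its experiments used 3 separate transductions, taken here as the 3 replicates, and p-values measure only the spread between these samples.

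ATF4 is made when translation initiation is restrained by phosphorylation of eIF2, and it binds composite C/EBP-ATF elements in the promoters of its targets. Asns makes asparagine from aspartate. Phgdh, Psat1 and Psph make serine in consecutive steps from a glycolytic intermediate, Shmt2 splits serine into glycine and a one-carbon unit in mitochondria, and Mthfd2 and Aldh1l2 oxidise that unit further. Aldh18a1 and Pycr1 carry out the first and last steps from glutamate to proline, and Cth releases cysteine from cystathionine at the end of transsulfuration.

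All 10 genes had a higher fitted RNA level in shOSGEP than in shCtr, by 1.07-fold for Shmt2 to 3.28-fold for Aldh1l2, and all 10 had a higher fitted RPF level. None passed an adjusted p of 0.05 in either assay. Neither did any other gene tested, including Osgep, the target of the hairpin. The ratio of RPF to RNA, the translational efficiency, showed no shared direction over all libraries. It was lower in shOSGEP for 10 of 10 genes without the shOSGEP replicate 1 library, and for 9 of 10 without both replicate 1 libraries. The first of these fits was unbalanced, because it kept shCtr replicate 1 and the ratio was highest in replicate 1 for most of the genes in both genotypes. The share of all genes below 0 was not counted. The median difference in RNA and in RPF level was largest in replicate 1. Pycr1, Aldh1l2, Cth, Psph and Asns had the 5 largest fitted differences in both assays.

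Some facts of the libraries bear on these values. Total RNA libraries held 46.7 to 81.1 M counts (M for mega) and RPF libraries 12.9 to 40.3 M, of which only 4.42 to 17 M fell on protein-coding genes. Each of the 10 genes rested on 308 to 25327 reads per total RNA library and on 31 to 3011 reads per RPF library, with Pycr1 lowest in both. The shOSGEP replicate 1 library stood apart in both assays. Its RPF library had 67.7% ribosomal RNA and the fewest protein-coding counts, and its total RNA library had the least Osgep RNA, 0.589 CPM (counts per M, scaled with TMM factors), against 6.92 and 6.78 CPM in the other shOSGEP libraries and 13.9, 15.7 and 15.3 CPM in shCtr. Osgep RPFs were 4.87, 3.81 and 2.36 CPM in shOSGEP and 7.72, 7.28 and 4.71 CPM in shCtr, lower in each pair. The fitted log2 change of Osgep RNA was -1.65 (SE 0.77, edgeR adjusted p = 0.975). For Osgep RPFs it was -0.84 (SE 0.39, edgeR adjusted p = 0.9998). Thus even the target of the hairpin did not pass the threshold. No gene tested had a smaller adjusted p in either assay, so the lack of a call says little about any single gene. Atf4 RNA was 242, 264 and 275 CPM in shCtr and 441, 347 and 402 CPM in shOSGEP, with a log2 change of 0.61 (SE 0.15, edgeR adjusted p = 0.975) that did not pass the threshold. All 7 melanocyte markers (Mitf, Pmel, Tyr, Tyrp1, Dct, Mlana and Sox10) were detected in each total RNA library, and they summed to 9664 to 16840 CPM in shCtr total RNA and to 2656 to 12790 CPM in shOSGEP. Immune markers summed to 0.581 to 1.43 CPM over the 6 total RNA libraries, with Cd3e at 0 in each, and fibroblast markers to 6.51 to 8.85 CPM in shCtr and 10.1 to 25.3 CPM in shOSGEP, with Dcn and Lum below 0.1 CPM throughout. The fibroblast sums did not overlap between genotypes, whereas the melanocyte sums did, and the part of either in the values of the biosynthetic genes was not tested. In bulk samples a change in the share of cells and a change in RNA per cell cannot be told apart.

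Since the genes were grouped as ATF4 targets, their promoters were searched for the core of the C/EBP-ATF element, TGATGNAA, in a window from 250 bases before to 50 bases after each RefSeq start. The GRCm38.p6 set held 9 windows for 8 of the 10 genes, and those of Asns and Pycr1 contained a match. Both windows are printed 5′ to 3′ on the gene's own strand (minus), with the match in capitals.
Asns, chr6:7693160-7693459: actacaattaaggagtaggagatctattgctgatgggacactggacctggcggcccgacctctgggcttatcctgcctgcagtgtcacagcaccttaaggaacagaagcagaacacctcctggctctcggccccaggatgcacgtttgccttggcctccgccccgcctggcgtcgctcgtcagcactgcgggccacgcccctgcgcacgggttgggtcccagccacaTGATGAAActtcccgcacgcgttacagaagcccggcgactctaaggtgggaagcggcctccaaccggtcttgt
Pycr1, chr11:120643699-120643998: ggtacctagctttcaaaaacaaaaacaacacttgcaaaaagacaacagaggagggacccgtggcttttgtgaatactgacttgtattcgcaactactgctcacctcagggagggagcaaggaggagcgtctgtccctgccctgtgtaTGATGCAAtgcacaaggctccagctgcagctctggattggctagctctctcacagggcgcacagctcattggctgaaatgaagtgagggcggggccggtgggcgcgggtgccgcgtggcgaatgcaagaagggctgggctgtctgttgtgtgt
In Asns the match was TGATGAAA at -23 to -16 from the start, letters known from the human gene as its nutrient-sensing response element, and in Pycr1 it was TGATGCAA at -103 to -96, the form of the element described for many ATF4 targets. TGATGNAA, read on both strands, occurred in 3.97% of the 32851 windows of all genes and TGATGCAA, which is contained in it, in 0.895%. Counted by gene, these shares were 4.51% and 1.03% of 27025 genes. The letters were not found in the windows of Phgdh, Psat1, Psph, Shmt2, Mthfd2 and Aldh18a1.

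Asns (ENSMUSG00000029752, chr6:7675169-7693254, minus strand, GRCm38), the single asparagine synthetase, was the first gene examined. Its RNA level was 148, 110 and 132 CPM in shCtr replicates 1, 2 and 3 and 339, 170 and 199.9 CPM in shOSGEP. Each shOSGEP library lay above each shCtr library. The fitted log2 change was 0.86 (SE 0.28, 1.82-fold, edgeR adjusted p = 0.975). RPFs on Asns spread far more within each genotype, with 90.0, 50.3 and 26.6 CPM in shCtr and 218, 58.1 and 30.0 CPM in shOSGEP. The shOSGEP library was the higher member of all 3 pairs, but by 0.17 and 0.21 on the log2 scale in replicates 3 and 2 against 1.27 in replicate 1. The fitted RPF change was 0.87 (SE 0.78, edgeR adjusted p = 0.9998). Without the shOSGEP replicate 1 library it was -0.35, and without both replicate 1 libraries it was 0.19, whereas the RNA changes were 0.50 and 0.60.

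The genes of serine synthesis differed in size and in spread. Psat1 (ENSMUSG00000024640, chr19:15904678-15947337), the phosphoserine aminotransferase, had the narrowest RNA levels of all, at 201, 204 and 195 CPM in shCtr and 246, 256 and 249 CPM in shOSGEP. Phgdh (ENSMUSG00000053398, chr3:98313170-98339990), the dehydrogenase of the first step, had 178, 172 and 197 CPM in shCtr and 213, 233 and 236 CPM in shOSGEP. For both genes the genotypes did not overlap. The RNA log2 changes were 0.32 for Psat1 (SE 0.12) and 0.32 for Phgdh (SE 0.13), both at an edgeR adjusted p of 0.975. Psph (ENSMUSG00000029446, chr5:129765558-129787449), the phosphatase that releases serine, was at a lower level, 32.1, 22.6 and 23.4 CPM in shCtr and 74.3, 32.5 and 38.9 CPM in shOSGEP. Its shOSGEP libraries also all lay above shCtr, although shOSGEP replicate 2 exceeded shCtr replicate 1 by little. The log2 change of Psph was 0.90 (SE 0.34, 1.87-fold, edgeR adjusted p = 0.975), and 0.44 without the shOSGEP replicate 1 library.

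In RPFs the serine genes overlapped between genotypes. Psph had 19.9, 12.4 and 10.8 CPM in shCtr and 68.4, 15.2 and 15.8 CPM in shOSGEP, a log2 change of 1.20 (SE 0.64, edgeR adjusted p = 0.9998). Phgdh ranged from 57.7 to 98.7 CPM in shCtr and from 61.2 to 121 CPM in shOSGEP, and Psat1 from 47.4 to 88.4 CPM and from 43.5 to 112 CPM. Their log2 changes were 0.30 (SE 0.36) and 0.21 (SE 0.42). Psat1 was lower in shOSGEP within the pair of replicate 3 (-0.12), and its fitted RPF change was -0.14 without the shOSGEP replicate 1 library. Phgdh and Psph were higher in 3 of 3 pairs, with fitted changes of 0.03 and 0.10 without that library. With both replicate 1 libraries left out, the fitted RPF changes were 0.10 for Psat1, 0.29 for Phgdh and 0.41 for Psph.

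The 3 mitochondrial one-carbon genes gave the smallest and the largest RNA differences of the group. Shmt2 (ENSMUSG00000025403, chr10:127517123-127522444), the mitochondrial serine hydroxymethyltransferase, had 255, 298 and 237 CPM in shCtr total RNA and 208, 327 and 309 CPM in shOSGEP. The genotypes overlapped, and the pair of replicate 1 went the other way from the other 2 pairs (-0.30, against 0.13 and 0.38 in replicates 2 and 3). Its fitted change of 0.09 (SE 0.21, edgeR adjusted p = 0.979) was smaller than its error. Mthfd2 (ENSMUSG00000005667, chr6:83305691-83325908), a methylene-tetrahydrofolate dehydrogenase, had 167, 169 and 156 CPM in shCtr and 285, 210 and 210.1 CPM in shOSGEP. These values did not overlap, and the log2 change was 0.52 (SE 0.17, 1.44-fold, edgeR adjusted p = 0.975).

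Aldh1l2 (ENSMUSG00000020256, chr10:83487450-83534140) oxidises formyl-tetrahydrofolate to carbon dioxide and yields NADPH. Its RNA level was 107, 52.3 and 38.5 CPM in shCtr and 371, 93.8 and 186 CPM in shOSGEP. Replicates differed so much within a genotype that shCtr replicate 1 exceeded shOSGEP replicate 2, but within pairs the log2 difference was 1.79, 0.84 and 2.27. The fitted change of 1.72 (SE 0.57, 3.28-fold, edgeR adjusted p = 0.975) was the largest of the 10 genes in total RNA. RPFs on Aldh1l2 were 43.0, 20.6 and 13.7 CPM in shCtr and 153, 34.2 and 53.1 CPM in shOSGEP, with pair differences of 1.83, 0.73 and 1.95. The fitted RPF change was 1.63 (SE 0.67, edgeR adjusted p = 0.9998). Without any filter on low counts its RPF change of 1.53 had an edgeR adjusted p of 0.0371 and passed, the single call of one of these genes under any alternative tried. Its RNA change remained 1.07 and its RPF change 0.75 without the shOSGEP replicate 1 library. They were 1.61 and 1.33 with both replicate 1 libraries left out.

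RPFs on Mthfd2 and Shmt2 overlapped between genotypes. Mthfd2 had 81.8, 75.3 and 60.3 CPM in shCtr and 137, 88.1 and 70.9 CPM in shOSGEP, a log2 change of 0.45 (SE 0.33). The Mthfd2 change was 0.12 without the shOSGEP replicate 1 library and 0.22 with both replicate 1 libraries left out. Shmt2 ranged from 43.7 to 70.9 CPM and from 55.8 to 82.6 CPM, a log2 change of 0.20 (SE 0.31). Each was higher in shOSGEP in 3 of 3 pairs. For Shmt2 this differed from total RNA, where 2 of 3 pairs were higher.

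The proline genes were expressed at very different levels. Aldh18a1 (ENSMUSG00000025007, chr19:40550257-40588463), the pyrroline-carboxylate synthase, had 110, 96.6 and 87.7 CPM in shCtr total RNA and 174, 111 and 135 CPM in shOSGEP, with no overlap and a log2 change of 0.51 (SE 0.20, edgeR adjusted p = 0.975). Pycr1 (ENSMUSG00000025140, chr11:120635712-120643769), a mitochondrial pyrroline-carboxylate reductase, had 7.96, 7.31 and 6.37 CPM in shCtr and 42.4, 7.53 and 14.9 CPM in shOSGEP. The shCtr libraries lay close together, while the shOSGEP libraries spanned the whole range from the control level to the highest value, and shOSGEP replicate 2 lay below shCtr replicate 1. The fitted log2 change was 1.58 (SE 0.59, 2.99-fold, edgeR adjusted p = 0.975) and 0.63 without the shOSGEP replicate 1 library. RPFs on Pycr1 were 2.59, 1.88 and 1.30 CPM in shCtr and 16.4, 2.32 and 2.80 CPM in shOSGEP, with a fitted log2 change of 1.89 (SE 0.82, edgeR adjusted p = 0.9998). This RPF change was 0.41 without that library and 0.68 with both replicate 1 libraries left out. Aldh18a1 RPFs ranged from 28.3 to 48.1 CPM in shCtr and from 36.5 to 79.9 CPM in shOSGEP, and the log2 change was 0.48 (SE 0.37). Without the shOSGEP replicate 1 library the Aldh18a1 changes were 0.32 in total RNA and 0.12 in RPF. They were 0.41 and 0.19 with both replicate 1 libraries left out.

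Cth (ENSMUSG00000028179, chr3:157894248-157925077), the cystathionine gamma-lyase, resembled Pycr1. Its RNA level was 9.77, 13.9 and 7.85 CPM in shCtr and 47.7, 14.8 and 17.9 CPM in shOSGEP. The groups did not overlap, but shOSGEP replicate 2 exceeded its shCtr partner by only 0.09 on the log2 scale, against 2.28 in replicate 1 and 1.19 in replicate 3. The fitted change was 1.35 (SE 0.48, 2.55-fold, edgeR adjusted p = 0.975). Cth RPFs were 5.07, 6.49 and 2.02 CPM in shCtr and 24.9, 5.48 and 6.48 CPM in shOSGEP, so that the pair of replicate 2 was reversed (-0.24). The RPF change was 1.44 (SE 0.71, edgeR adjusted p = 0.9998). Without the shOSGEP replicate 1 library the Cth changes were 0.63 in total RNA and 0.40 in RPF. They were 0.58 and 0.49 with both replicate 1 libraries left out.

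**Figure D1:**
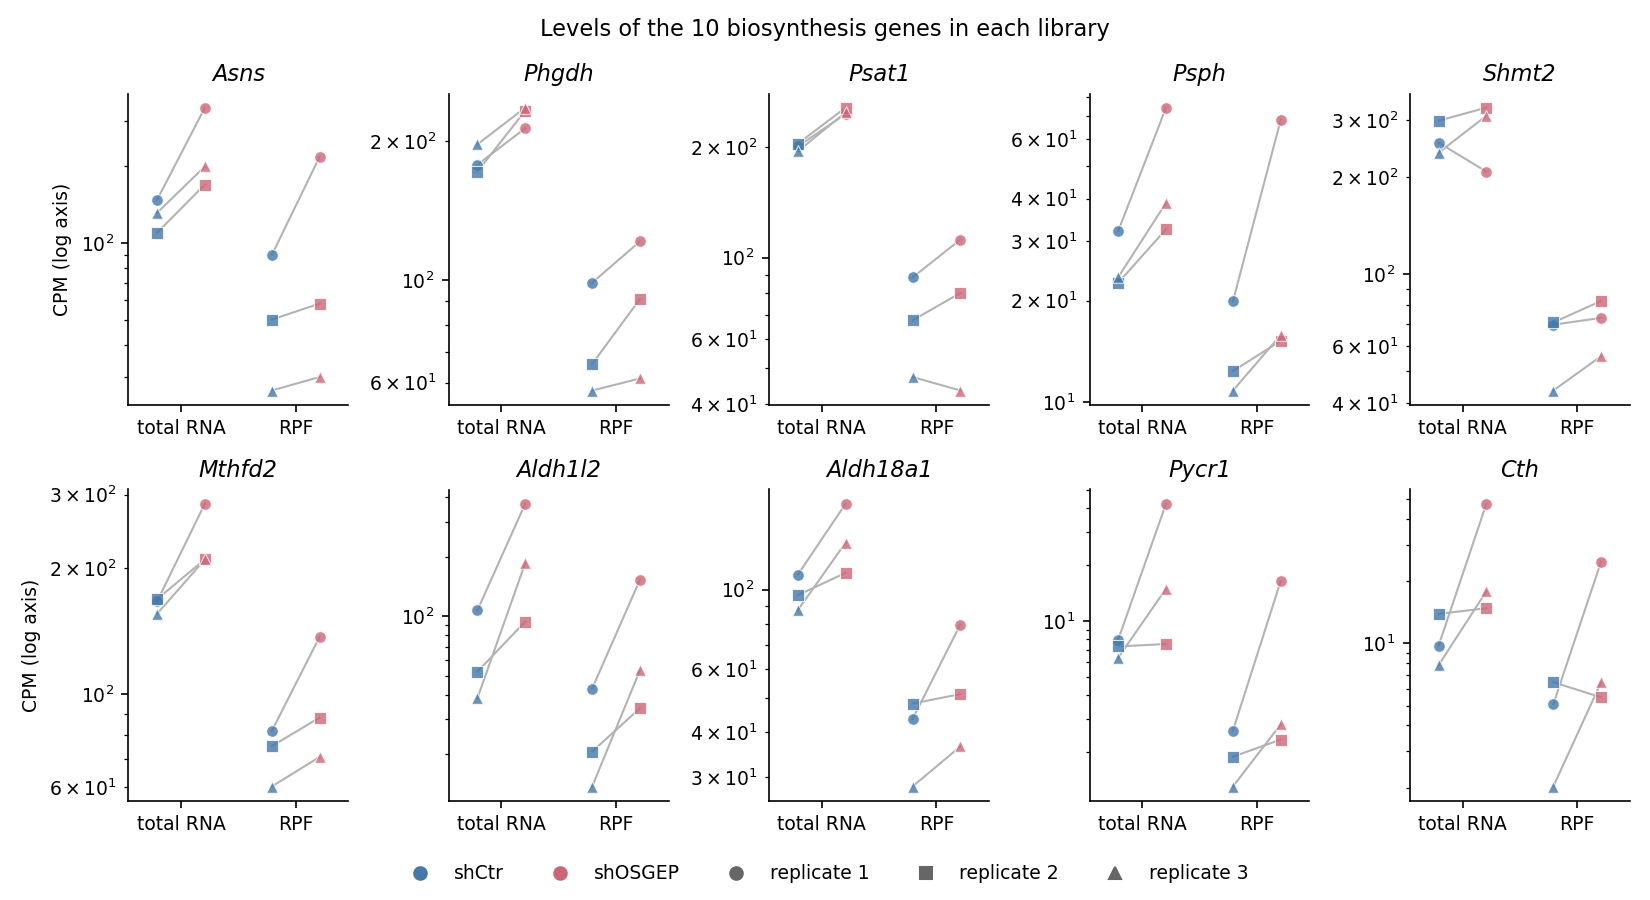
CPM (log axis) of each of the 10 genes in the 6 total RNA and 6 RPF libraries, with shCtr in blue, shOSGEP in red, symbols for replicate numbers and grey lines joining libraries of the same number. In 7 of 10 genes the 3 shOSGEP total RNA values lie above the 3 shCtr values, against 4% of all genes tested. In RPFs every gene overlaps, and 2.43% of all genes tested had each shOSGEP value above each shCtr value.

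Counted over the group, 0 of 10 genes passed an adjusted p of 0.05 in total RNA, where 0% of the 14516 genes tested did. Because the genes were chosen with earlier results of these data known, the counts given here are a description. With an unadjusted p under 0.05, 9 of 10 were higher in shOSGEP (all but Shmt2), against 1.52% of all genes. The 3 shOSGEP libraries lay above the 3 shCtr libraries in 7 of 10, against 4% of all genes, the exceptions being Shmt2, Aldh1l2 and Pycr1. The shOSGEP library was higher in all 3 pairs for 9 of 10 genes, against 17.7% of all genes. Replicate 1 was not needed for that direction, because all 10 genes were higher in both other pairs, against 26.9% of all genes. With the replicate number as a block, 8 of 10 had an unadjusted p under 0.05 and were higher, against 2.51% of all genes, and the smallest adjusted p among the 10 was 0.721.

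The median log2 change of the 10 genes in total RNA was 0.69 (range 0.09 to 1.72), against 0.02 over all genes tested, whose 5th and 95th percentiles were -0.50 and 0.95. Within pairs 1, 2 and 3 the median of the 10 was 0.99, 0.32 and 0.61. That of all genes, which the scaling keeps close to 0, lay between 0.0016 and 0.0101. Without both replicate 1 libraries the median of the 10 was 0.50 and all 10 remained above 0, and without the shOSGEP replicate 1 library it was 0.40, again with all 10 above 0. Together the 10 genes took 0.118% to 0.133% of protein-coding counts in shCtr total RNA and 0.151% to 0.232% in shOSGEP, and these shares did not overlap.

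In RPFs, 0 of 10 genes passed an adjusted p of 0.05, where 0% of the 13529 genes tested did. Aldh1l2 alone was higher with an unadjusted p under 0.05, against 0.754% of all genes, and for 0 of 10 genes did all shOSGEP libraries lie above all shCtr libraries, against 2.43% of all genes. By pairs the direction was more regular, with 8 of 10 genes higher in 3 of 3 pairs, against 15.7% of all genes, the exceptions being Psat1 and Cth. Pairs 2 and 3 were both higher for the same number, 8 of 10, against 27.8% of all genes. With the replicate block, 3 of 10 were higher at an unadjusted p under 0.05 (Psph, Aldh1l2 and Pycr1), against 2.54% of all genes.

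The median RPF change was 0.68 (range 0.20 to 1.89), against 0.05 over all genes. By pairs 1, 2 and 3 it was 1.07, 0.24 and 0.36. Without the shOSGEP replicate 1 library, whose ribosomal RNA share was the highest, the median was 0.12 and 8 of 10 genes were above 0, the exceptions being Asns and Psat1. Without both replicate 1 libraries it was 0.28 with all 10 above 0. The share of protein-coding RPF counts on the 10 genes was 0.147%, 0.111% and 0.0856% in shCtr replicates 1, 2 and 3 and 0.275%, 0.141% and 0.115% in shOSGEP, higher in each pair but overlapping between genotypes.

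**Figure D2:**
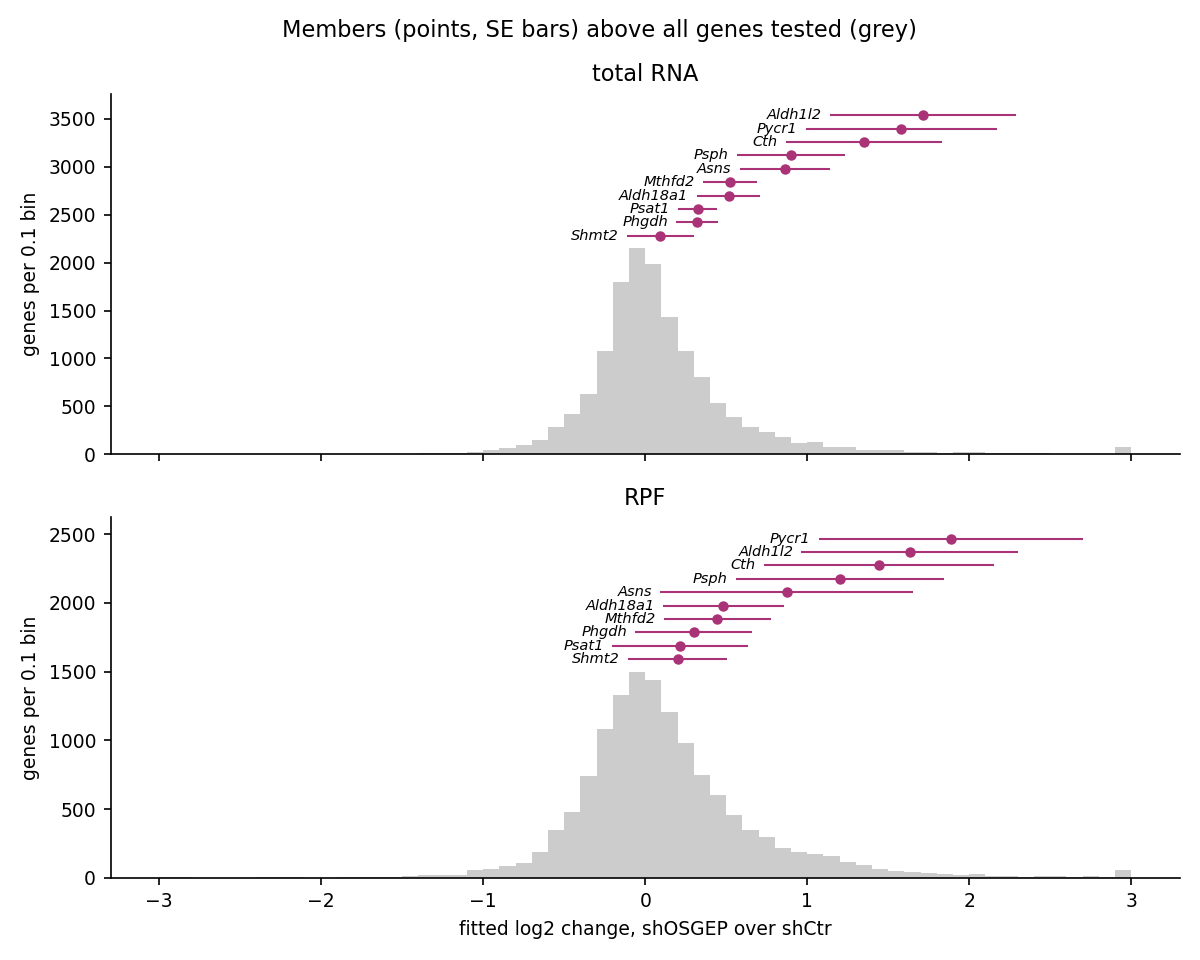
Fitted log2 change of shOSGEP over shCtr for the 10 genes (purple points, with bars of 1 SE) set over a histogram of all genes tested (grey, number of genes per bin, with genes beyond either end of the axis counted in the end bins), for total RNA and RPF. The height of the points has no meaning. The 10 points span 0.09 to 1.72 for total RNA and 0.20 to 1.89 for RPF, to the right of the peak of all genes near 0.

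A change in translational efficiency was sought in a model over all 12 libraries, as the difference between the RPF and the RNA change of a gene. For 0 of 10 genes was the adjusted p under 0.05, where 0% of the 12560 genes tested passed, and each of the 10 had an edgeR adjusted p of 1. The fitted log2 changes ran from -0.12 for Psat1 (SE 0.45) to 0.29 for Psph (SE 0.78), with a median of -0.01 against -0.0024 over all genes. Pycr1 had 0.28 (SE 1.07) and Asns less than 0.01 in size (SE 0.92). These errors are as large as several of the RNA changes themselves. The model did not use the matching of RPF and RNA libraries by genotype and replicate number. Libraries matched in this way were taken to come from the same cell sample, from their labels alone. With the cell sample as a block, the errors were smaller, from 0.22 for Aldh1l2 to 0.60 for Asns. The changes then ran from -0.26 for Asns to 0.13 for Shmt2, and each was still smaller than its error. Differences in translational efficiency of the fitted size were not detectable with or without the block. In 0 of 10 genes was the efficiency higher in all 3 pairs, against 11.6% of all genes, and it was lower in all 3 pairs in 1 of 10, Mthfd2 (-0.03, -0.09 and -0.20), against 11.2% of all genes. The direction depended on the pair. It was higher in 8 of 10 genes in replicate 1, in 3 of 10 in replicate 2 and in 1 of 10 in replicate 3. Without the shOSGEP replicate 1 library the fitted change was below 0 for 10 of 10 genes (median -0.28, range -0.85 to -0.10, against a median of -0.01 over all genes). That fit kept shCtr replicate 1, in which the ratio was the highest of the shCtr replicates for 9 of 10 genes. With both replicate 1 libraries left out it was below 0 for 9 of 10 (median -0.18, against -0.02 over all genes). Neither of these edgeR fits called any of the 10.

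The median RPF to RNA ratio of these genes differed more between replicate numbers than between genotypes. For Asns the log2 ratio was -0.72 in shCtr and -0.64 in shOSGEP of replicate 1, -1.13 and -1.55 in replicate 2, and -2.30 and -2.73 in replicate 3. For Phgdh it was -0.85 and -0.81 in replicate 1, -1.38 and -1.36 in replicate 2, and -1.77 and -1.95 in replicate 3. Replicate 3 was the lowest of the 3 replicates for 10 of 10 genes in shCtr and 10 of 10 in shOSGEP, and replicate 1 was the highest for 9 and 10 of them. The median over the 10 genes was -1.11, -1.25 and -1.84 in shCtr replicates 1, 2 and 3 and -1.09, -1.44 and -1.92 in shOSGEP. Over all 12560 genes the median stayed between -1.39 and -1.31 in the 6 cell samples. The scaling within each assay keeps that median close to constant. How many of all genes had the same order of replicates was not counted. The ratio was the widest-ranging for Asns and narrowest for Aldh1l2, which lay between -1.80 and -1.28.

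**Figure D3:**
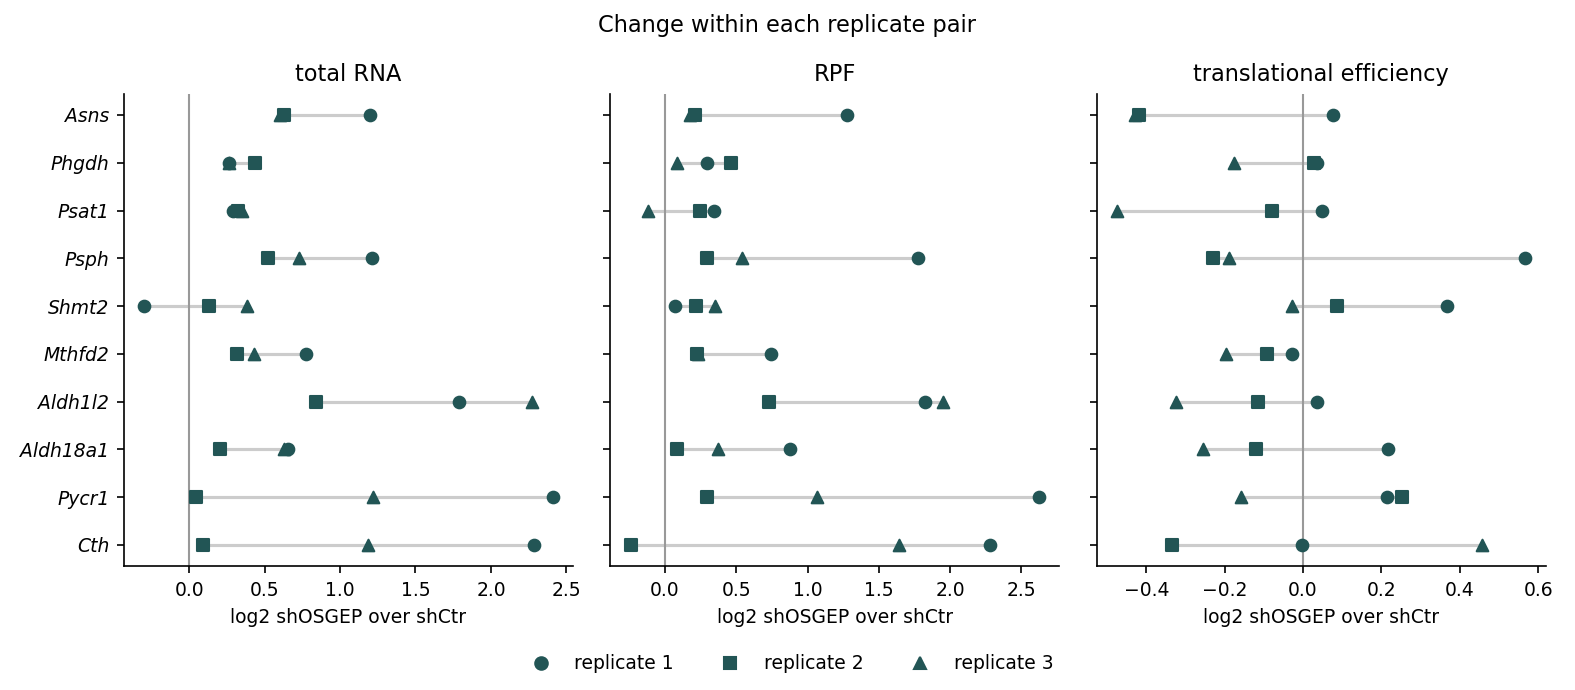
Log2 difference between the shOSGEP and shCtr library of each replicate number, for total RNA, RPF and translational efficiency, with 1 symbol per replicate and a grey line from the lowest to the highest pair. In total RNA only Shmt2 in replicate 1 lies below 0, in RPF only Psat1 in replicate 3 and Cth in replicate 2 do, and in translational efficiency the symbols scatter on both sides of 0 for 9 of 10 genes.

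Levels of different genes were compared per kilobase, of annotated exon for total RNA and of annotated coding sequence for RPF. These lengths are unions over all annotated transcripts, and the transcripts used in these cells were not determined. The order of the genes depends on them, as for Psph with 4329 bases of exon and 675 of coding sequence. In shCtr total RNA Shmt2 (84.7 CPM per kb) and Phgdh (73.3) were highest, with overlapping libraries. Asns (47.5), Psat1 (47.02) and Mthfd2 (46.98) followed and overlapped each other, all of them below Phgdh in every library. Aldh18a1 (24.1) was separated from the genes on both sides, Aldh1l2 (8.79) overlapped Psph (6.01), and Cth (3.77) and Pycr1 (1.83) were lowest and separate. In shOSGEP total RNA Phgdh (91.5), Shmt2 (90.4), Asns (86.4) and Mthfd2 (67.5) overlapped in turn at the top, and Aldh1l2 (28.9) overlapped Aldh18a1 (34.4).

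For RPFs per kb of coding sequence the order in shCtr was Mthfd2 (61.6 CPM per kb), Psat1 (58.4), Phgdh (44.8), Shmt2 (40.6), Asns (33.1), Psph (21.3), Aldh18a1 (16.4), Aldh1l2 (9.31), Cth (3.79) and Pycr1 (2.08), and every gene overlapped its neighbour. The lowest places were again held by Cth and Pycr1. In shOSGEP Mthfd2 (83.9) and Psat1 (67.7) were still first, and Cth (10.3) and Pycr1 (7.72) still last.

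Several of the 10 enzymes have paralogs that act in another compartment or on the same substrate, and the ratio of counts between member and paralog within a library needs no scaling between libraries. The ratios were compared between genotypes by a two-sided exact permutation test of 3 against 3, whose smallest p is 0.1, with 10 comparisons (5 pairs in each assay), so none could pass 0.05. Aldh1l2 and its cytosolic paralog Aldh1l1 had the largest differences. Their log2 ratio in total RNA was 1.97, 1.48 and 1.40 in shCtr and 3.67, 2.77 and 3.94 in shOSGEP, a difference of 1.84 (exact p = 0.1, adjusted 0.2). In RPFs the ratio was 1.87, 1.50 and 1.77 in shCtr and 3.30, 2.83 and 4.29 in shOSGEP, a difference of 1.76 (exact p = 0.1, adjusted 0.2). Unlike the level of Aldh1l2 alone, the ratio did not overlap between genotypes in either assay. Aldh1l1 itself measured 27.4, 18.8 and 14.5 CPM in shCtr total RNA and 29.2, 13.8 and 12.1 CPM in shOSGEP.

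Shmt2 relative to its cytosolic paralog Shmt1 also did not overlap, although the RNA level of Shmt2 did. The log2 ratio in total RNA was 3.03, 3.03 and 2.72 in shCtr and 3.75, 3.11 and 3.30 in shOSGEP, a difference of 0.46 (exact p = 0.1, adjusted 0.2). In RPFs it was 2.35, 2.38 and 2.12 against 2.89, 2.72 and 2.85, a difference of 0.53 (exact p = 0.1, adjusted 0.2). Shmt1 RNA was lower in shOSGEP in 2 of 3 pairs and its fitted log2 change was -0.29 (SE 0.32, edgeR adjusted p = 0.975).

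Pycr1 was compared with its cytosolic paralog Pycr3 (Pycrl in the annotation). The log2 ratio of counts, which is not corrected for length, was in total RNA -2.11, -2.64 and -2.62 in shCtr and 0.47, -2.39 and -1.25 in shOSGEP, a difference of 1.40 (exact p = 0.2, adjusted 0.33). In RPFs it was -2.14, -2.31 and -2.55 in shCtr and 0.56, -2.03 and -0.86 in shOSGEP, a difference of 1.56 with no overlap (exact p = 0.1, adjusted 0.2). Pycr3 had a fitted RNA change of -0.17 (SE 0.17, edgeR adjusted p = 0.975). Mthfd2 relative to Mthfd1, the cytosolic enzyme that includes this activity, differed by 0.49 in total RNA (exact p = 0.4, adjusted 0.5) and by 0.47 in RPFs (exact p = 0.3, adjusted 0.43). Relative to Mthfd2l, its mitochondrial paralog, Mthfd2 differed by 0.07 in total RNA (exact p = 0.8) and by 1.02 in RPFs (exact p = 0.5), where Mthfd2l rested on as few as 5 reads.

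**Figure D4:**
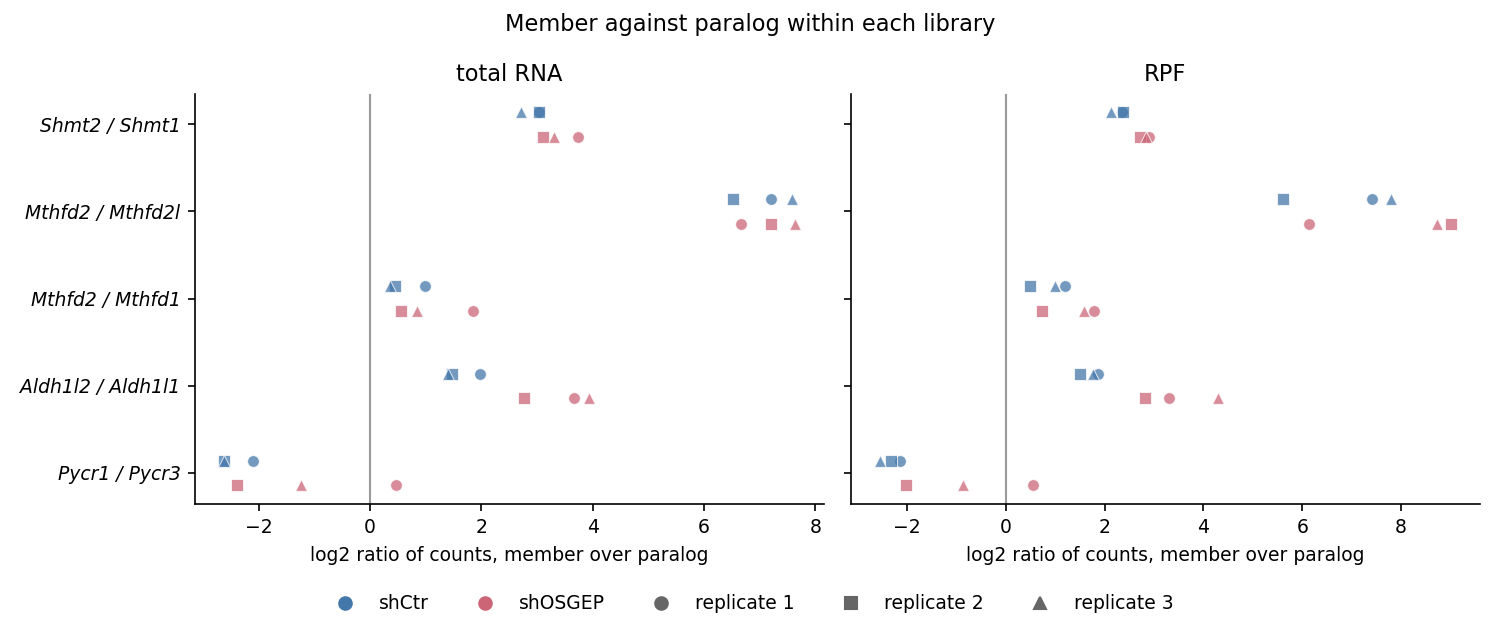
Log2 ratio of the counts of each gene to those of its paralog within each library, for total RNA and RPF, with shCtr in blue, shOSGEP in red and symbols for replicate numbers. The genotypes are separate in both assays for Aldh1l2 over Aldh1l1 and for Shmt2 over Shmt1.

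The rest of the same pathways was described with a list of 61 further genes of serine and glycine, folate, proline, asparagine, glutamate, methionine and transsulfuration metabolism. This list, too, was chosen with earlier results of these data known. Of 54 tested in total RNA, 0 passed an adjusted p of 0.05, where 0% of all genes did. At an unadjusted p under 0.05, 2 were higher, against 1.52% of all genes. A fitted change above 0 was found for 25, and the share of all genes above 0 was not counted. The median log2 change of the 54 was -0.02, against 0.69 for the 10 enzymes and 0.02 for all genes tested. In RPFs 51 were tested, 0 passed, 25 were above 0 and the median was -0.02. The genes of smallest unadjusted p in total RNA were Nars, the cytosolic asparaginyl-tRNA synthetase (log2 change 0.51, SE 0.16), P4ha2, a subunit of collagen prolyl hydroxylase (0.53, SE 0.21), and Mtrr, which reactivates methionine synthase (0.43, SE 0.19), all at an edgeR adjusted p of 0.975. In RPFs they were Got2, the mitochondrial aspartate aminotransferase (-0.52, SE 0.28), Asrgl1, an asparaginase-like enzyme (1.04, SE 0.57), and Mthfs, which returns formyl-tetrahydrofolate to the folate cycle (0.86, SE 0.51), all at an edgeR adjusted p of 0.9998.

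The pattern of the 10 genes over the 12 libraries was summarised as the mean of their log2 CPM, centred within each assay. Each gene was compared with the mean of the other 9 over all 12 libraries, and not again without replicate 1. Genes with larger differences weighed more in this mean, which was not standardised by gene. Mthfd2 (Pearson r 0.977), Psph (0.957), Aldh18a1 (0.952), Pycr1 (0.935), Asns (0.928) and Cth (0.921) were closest, followed by Aldh1l2 (0.892), Phgdh (0.782) and Psat1 (0.769), while Shmt2 was at 0.261. Among 12550 other genes, the most alike over the 12 libraries were Pla2g16 (0.978), Nars (0.975), Slc1a4 (0.969), P4ha2 (0.965) and Dhrs7 (0.963). Without the replicate 1 libraries, over 8 libraries, these were at 0.933, 0.912, 0.884, 0.878 and 0.878. Their fitted RNA log2 changes were 0.97, 0.51, 1.15, 0.53 and 1.01. Libraries of both assays with the same genotype and replicate number were taken to come from the same cell sample, and these values are a description.

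Because t6A lies on tRNAs for ANN codons, the share of such codons was counted in the coding sequence of each gene. It ranged from 21.8% in Shmt2 to 29.2% in Psat1, with a median of 25.8%, against a median of 27.0% over 11266 protein-coding genes, and 7 of 10 genes were below that median. Asparagine codons made up 6.49% of Psat1, above the 95th percentile of all genes (5.67%), and 2.27% of Pycr1. Shmt2, lowest in ANN codons, exceeded 16.2% of all genes in that share. Asns itself had 3.39% asparagine codons, close to the median of 3.35%.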

How the data were processed

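RPF and total RNA libraries of shCtr and shOSGEP B16F10 cells (3 each, grouped and numbered from the sample labels) were analysed as deposited. The 2 deposited tables hold raw, whole-number read counts for 55487 Ensembl genes, and every column was matched to a sample. Per the labels, elongation was arrested with cycloheximide, lysates were nuclease-digested, ribosomes were captured with a puromycin analogue, and short fragments were gel-selected and amplified. The submitters' processing notes name FastQC 0.11.9, Trim Galore 0.6.6, cutadapt and STAR, and both GRCm39 and GRCm38. The counting step, its annotation, strand and treatment of multiply mapping reads, and the kit of the total RNA libraries, are not given in the sources used here, so reads shared by near-identical copies could be split or lost. Libraries were amplified, and the study trimmed degenerate end bases from RPF reads and names no collapsing of duplicates by them, so counts may not be independent molecules.

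The 10 genes and all gene lists were chosen with earlier results of these data known. Symbols, positions and lengths came from GENCODE M21 (GRCm38), which held 55227 of the gene IDs and lacked 260. Lengths are unions of annotated exons or coding segments. Promoter windows came from RefSeq (GRCm38.p6).

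Quasi-likelihood tests of the counts were run with edgeR 4.0.16 in R 4.3.3 (filterByExpr, TMM, genotype as the only term, Benjamini-Hochberg adjustment over all genes tested, threshold 0.05), separately per assay. Translational efficiency was tested by the assay by genotype interaction over 12 libraries, with TMM within each assay. SE is the size of the log2 change divided by the square root of F. Log2 CPM used a prior count of 2. The model was tested on simulated data. Within each group no library was a copy of another (chi-square per degree of freedom at least 61.7 between replicates). Libraries of different groups were not compared in this way.

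Same-numbered libraries of both genotypes deviated together (r for replicates 1, 2 and 3 was 0.515, 0.542 and 0.287 in RNA libraries and 0.586, 0.508 and 0.665 in RPF libraries). The replicate numbers were therefore taken to pair the samples, and a fit with a block was an alternative. The block was the replicate number within an assay and, for translational efficiency, the cell sample as taken from genotype and replicate number. Unless stated, the SE and adjusted p of a gene are from the fit without the block. With it the SE of each of the 10 genes was smaller, for Asns in RPF 0.29 against 0.78. The other alternatives were RLE scaling, no filter, protein-coding genes only, DESeq2 1.42.0, and leaving out each library or replicate. Named genes were the 10 enzymes, their paralogs (1 gene planned for naming is not reported here), 3 further pathway genes of smallest unadjusted p per assay, Osgep, Atf4 and the 5 genes most alike in pattern.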

Additional observations from a re-analysis of the deposited data

How the results depend on the processing

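None of the 10 genes was called in total RNA, RPF or translational efficiency under any alternative run, other than Aldh1l2 in RPF without a filter. The count of genes called over the whole tables, 0 in each comparison (259, 139 and 17 genes at an unadjusted p under 0.05 in edgeR), became 8 in total RNA and 1 in RPF with DESeq2, 229 in RPF with no filter on low counts, and 1 in total RNA with the replicate block. The block changed no other call. The median change of the 10 genes stayed between 0.40 and 0.85 in total RNA, between 0.12 and 1.01 in RPF and between -0.28 and 0.21 in translational efficiency when a library or replicate was left out, and with the replicate block it was 0.66, 0.50 and -0.05. Leaving out the shOSGEP replicate 1 library gave the lowest median in each.

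Some fitted log2 changes turned sign when a library or replicate was left out. In total RNA the ranges were -0.066 to 0.26 for Shmt2, -0.11 to 0.99 for Mthfd2l, -0.17 to 0.23 for Mthfd1 and -0.66 to 0.14 for Aldh1l1. In RPF they were -0.35 to 1.40 for Asns, -0.14 to 0.50 for Psat1, -0.016 to 0.96 for P4ha2, -0.34 to 0.23 for Mthfd1, -1.04 to 0.42 for Aldh1l1 and -0.40 to 0.10 for Pycr3. Aldh1l1 in RPF also turned with RLE factors (0.0073) and with DESeq2 (0.0112). In translational efficiency every one of the 10 genes turned, with ranges of -0.85 to 0.42 for Asns, -0.33 to 0.24 for Phgdh, -0.47 to 0.18 for Psat1, -0.34 to 0.50 for Psph, -0.10 to 0.33 for Shmt2, -0.23 to 0.036 for Mthfd2, -0.32 to 0.033 for Aldh1l2, -0.23 to 0.17 for Aldh18a1, -0.21 to 0.48 for Pycr1 and -0.22 to 0.24 for Cth. Asns in translational efficiency was 0.0263 with RLE factors, 0.0273 with protein-coding genes only and 0.0272 with DESeq2. The cause of these turns was not tested. Over the 10 genes in all 3 measures, and their paralogs, the further pathway genes, Osgep and Atf4 in total RNA and RPF (Mthfd2l in total RNA only), 715 values kept their direction and side of the threshold and 54 turned sign. The genes most alike in pattern were not run under the alternatives, apart from Nars and P4ha2. With 3 replicates and RPF depth of 31 reads for the lowest gene, differences in efficiency of the size fitted here were not detectable.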
